A study of Homo sapiens with 18 samples.

Results

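The genes described here are 10 members of the cellular system that detects RNA as a sign of infection and answers with interferon beta: the RNA sensors DDX58 (RIG-I), IFIH1 (MDA5), DHX58 (LGP2), TLR3 and EIF2AK2 (PKR), the adaptor MAVS, the ubiquitin ligase TRIM25, the kinase TBK1, the transcription factor IRF3 and the cytokine gene IFNB1. They were taken by symbol, and each of the 10 had a single row in each expression table, among 58735 rows in the RBCK1 and ANKRD35 tables and 29928 in the MITD1 table. The libraries were 18 RNA-seq libraries of 786-O, an established clear cell renal carcinoma line, in 6 groups of 3. Cells labelled shRBCK1 were compared with shcontrol, cells labelled siANKRD35 with sicontrol_for_siANKRD35 and cells labelled siMITD1 with sicontrol_for_siMITD1. All groups were grown in RPMI-1640 with serum, and no virus, RNA ligand or interferon treatment is named for any of them. Whether the 3 libraries of a group were grown apart is not stated in the labels. The p-values therefore speak only of how these libraries vary, and that variation may be technical. The labels do not name the hairpin or siRNA sequences or the control constructs. For the ANKRD35 knockdown the sources disagree on the method: its columns of values are headed ShRNA, a hairpin, while the sample labels say si. The name siANKRD35 used here follows the labels, and which method was used is not settled by the sources.

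RIG-I and MDA5 are helicases that bind double-stranded or 5′-triphosphorylated RNA in the cytosol and then engage MAVS on mitochondria, and LGP2 is a related helicase that lacks the signalling domain and modulates both. TRIM25 attaches ubiquitin chains that promote RIG-I signalling, MAVS recruits TBK1, and TBK1 phosphorylates IRF3, which enters the nucleus and activates IFNB1. TLR3 detects double-stranded RNA in endosomes, and PKR halts translation by phosphorylating eIF2alpha. Several of the sensor genes are themselves induced by interferon through the interferon receptor, so that their RNA level in resting cells is usually low. RBCK1 (HOIL-1) is a subunit of the linear ubiquitin chain assembly complex.

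The targeted genes followed their labels. RBCK1 had a mean of 480 FPKM (fragments per kilobase of transcript, scaled to the size of the library) in shcontrol and 31.9 FPKM in shRBCK1, ANKRD35 fell from 727 to 0.0111 FPKM, and MITD1 fell from 7.47 to 2.71 FPKM. RBCK1 in shcontrol was 6.79 and 7.34 times as high as in the other control groups, where its means were 70.8 and 65.5 FPKM, and ANKRD35 was at 0 or 0.0064 FPKM in the other control groups, so shcontrol and sicontrol_for_siANKRD35 each held their own target far above the other control groups. What set these controls apart was not tested. Lower or higher in a knockdown is meant below only relative to its own control. RBCK1 itself was higher in siMITD1 than in its control, at 94.5 against 65.5 FPKM (limma log2 change 0.52, adjusted p = 1.19e-06). Libraries held 16346478 to 18648246 reads in the RBCK1 table, 17502646 to 19034974 in the ANKRD35 table and about 14443656 to 15780394 in the MITD1 table. The replicate 2 library of siANKRD35 stood apart, with correlations between siANKRD35 libraries going down to 0.970 where the lowest in the other 5 groups was 0.992. Of 11 renal carcinoma line markers all 11, 11 and 10 passed the expression filter in the RBCK1, ANKRD35 and MITD1 tables. Of the markers of other cell types, 12 in the RBCK1 and ANKRD35 tables and 11 in the MITD1 table, 5 were at 0 in all libraries of each table, the T cell, red cell and plasmacytoid dendritic cell markers CD3E, HBB and CLEC4C among them. Their summed level ran from 1.79 to 2.01 FPKM in shcontrol and 2.18 to 2.57 in shRBCK1, from 0.880 to 1.48 in sicontrol_for_siANKRD35 and 0.612 to 1.31 in siANKRD35, and from 3.00259 to 4.05 in sicontrol_for_siMITD1 and 2.46 to 2.74 in siMITD1. LUM, a stromal proteoglycan, made up most of it in the RBCK1 and MITD1 tables, and its part in the results was not tested.

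The RNA of the cytosolic sensors and of IFNB1 was lower in shRBCK1 than in shcontrol. Of the 10 members, 7 were lower (DDX58, IFIH1, DHX58, TRIM25, TLR3, EIF2AK2 and IFNB1), 1 was higher (MAVS) and 2 did not pass the test (TBK1 and IRF3) at an adjusted p under 0.05 by limma on log2(FPKM + 1). Over all 12227 genes tested, 24.9% were lower, 24.1% were higher and 49.1% were called in either direction. The median change of the members was -1.47 on the log2 scale, and that of all genes tested was 0.0054. With voom on recovered reads the calls over all genes were 4191 higher and 2673 lower, against 2951 and 3049 here, and the same 8 members were called. DHX58 and IFNB1 reached the filter of at least 1 FPKM in at least 3 of 6 libraries only through shcontrol, so they had to differ in order to be tested. In bulk RNA, less RNA per cell and fewer cells with the RNA cannot be told apart.

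DDX58, the sensor of triphosphorylated RNA ends, was the most abundant member in shcontrol. Its shcontrol libraries held 76.3, 76.3 and 77.0 FPKM, and its shRBCK1 libraries held 7.25, 7.09 and 7.34 FPKM. The groups did not overlap and the spread within each was under 1 FPKM. The mean was 10.6 times lower in shRBCK1, a change of -3.24 (SE 0.030, limma adjusted p = 1.08e-09). The reads behind these values numbered 16664 in shcontrol and 1703 in shRBCK1.

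IFIH1, the sensor of long double-stranded RNA, went with it. It measured 36.7, 37.3 and 37.7 FPKM in shcontrol and 2.64, 2.69 and 2.997 FPKM in shRBCK1. Every knockdown library lay below every control library, and the mean was 13.4 times lower. The fitted change was -3.34 (SE 0.046, limma adjusted p = 4.95e-09). DHX58, the regulator of the other two helicases, was much scarcer, at 4.26, 4.04 and 4.26 FPKM in shcontrol. In shRBCK1 it held 0.529, 0.308 and 0.216 FPKM. That is 805 reads against 74, and the 74 reads put DHX58 in shRBCK1 at 0.0850 times the control level (95% interval 0.0660 to 0.108, which covers counting error only). The fitted change of DHX58 was -1.95 (limma adjusted p = 5.15e-06), which the added pseudocount of 1 shrinks at such low levels: with a pseudocount of 0.1 it was -3.31.

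The other RNA-binding members also fell, by less. EIF2AK2, the kinase that stops translation on double-stranded RNA, measured 27.55, 27.55 and 29.03 FPKM in shcontrol and 9.17, 8.66 and 8.51 FPKM in shRBCK1. The groups were well apart, with a change of -1.57 (SE 0.041, limma adjusted p = 1.41e-07). TLR3, the endosomal receptor, measured 4.15, 4.76 and 4.87 FPKM in shcontrol and 1.85, 1.74 and 1.72 FPKM in shRBCK1. It changed by -1.01 (SE 0.067, limma adjusted p = 2.45e-05), with no overlap between groups.

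The members between sensor and nucleus did not move as a block. TRIM25, the ligase that acts on RIG-I, measured 42.7, 43.2 and 43.5 FPKM in shcontrol and 16.8, 14.9 and 16.3 FPKM in shRBCK1, a change of -1.38 (SE 0.045, limma adjusted p = 5.25e-07). MAVS, the mitochondrial adaptor of RIG-I and MDA5, went the other way, from 10.0, 9.27 and 9.99 FPKM in shcontrol to 15.8, 13.8 and 16.1 FPKM in shRBCK1. All 3 knockdown libraries of MAVS lay above all 3 controls, and it rose by 0.59 (SE 0.063, limma adjusted p = 0.000243). TBK1, the kinase that MAVS recruits, had 6.07, 5.99 and 6.43 FPKM in shcontrol and 6.72, 5.66 and 5.83 FPKM in shRBCK1. Its groups overlapped, and the difference was -0.021 (SE 0.064, limma adjusted p = 0.811). IRF3, the factor that TBK1 phosphorylates, had 22.03, 20.3 and 19.8 FPKM in shcontrol and 18.8, 19.6 and 19.6 FPKM in shRBCK1. The IRF3 groups did not overlap, yet the difference of -0.092 (SE 0.046, limma adjusted p = 0.135) did not pass the test.

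IFNB1, the cytokine gene at the end of the pathway, was detected in shcontrol at 4.71, 2.68 and 3.23 FPKM. These are 69, 37 and 47 reads. In the shRBCK1 libraries IFNB1 had 0 reads, which allows levels of up to 0.182, 0.207 and 0.194 FPKM by a floor of 3 reads per library. Against a floor of 3 reads over the group, the level was at least 55.2-fold lower in shRBCK1. The fitted change was -2.16 (SE 0.155, limma adjusted p = 3.55e-05), a value that depends on the pseudocount since 1 group is at 0.

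**Figure D1:**
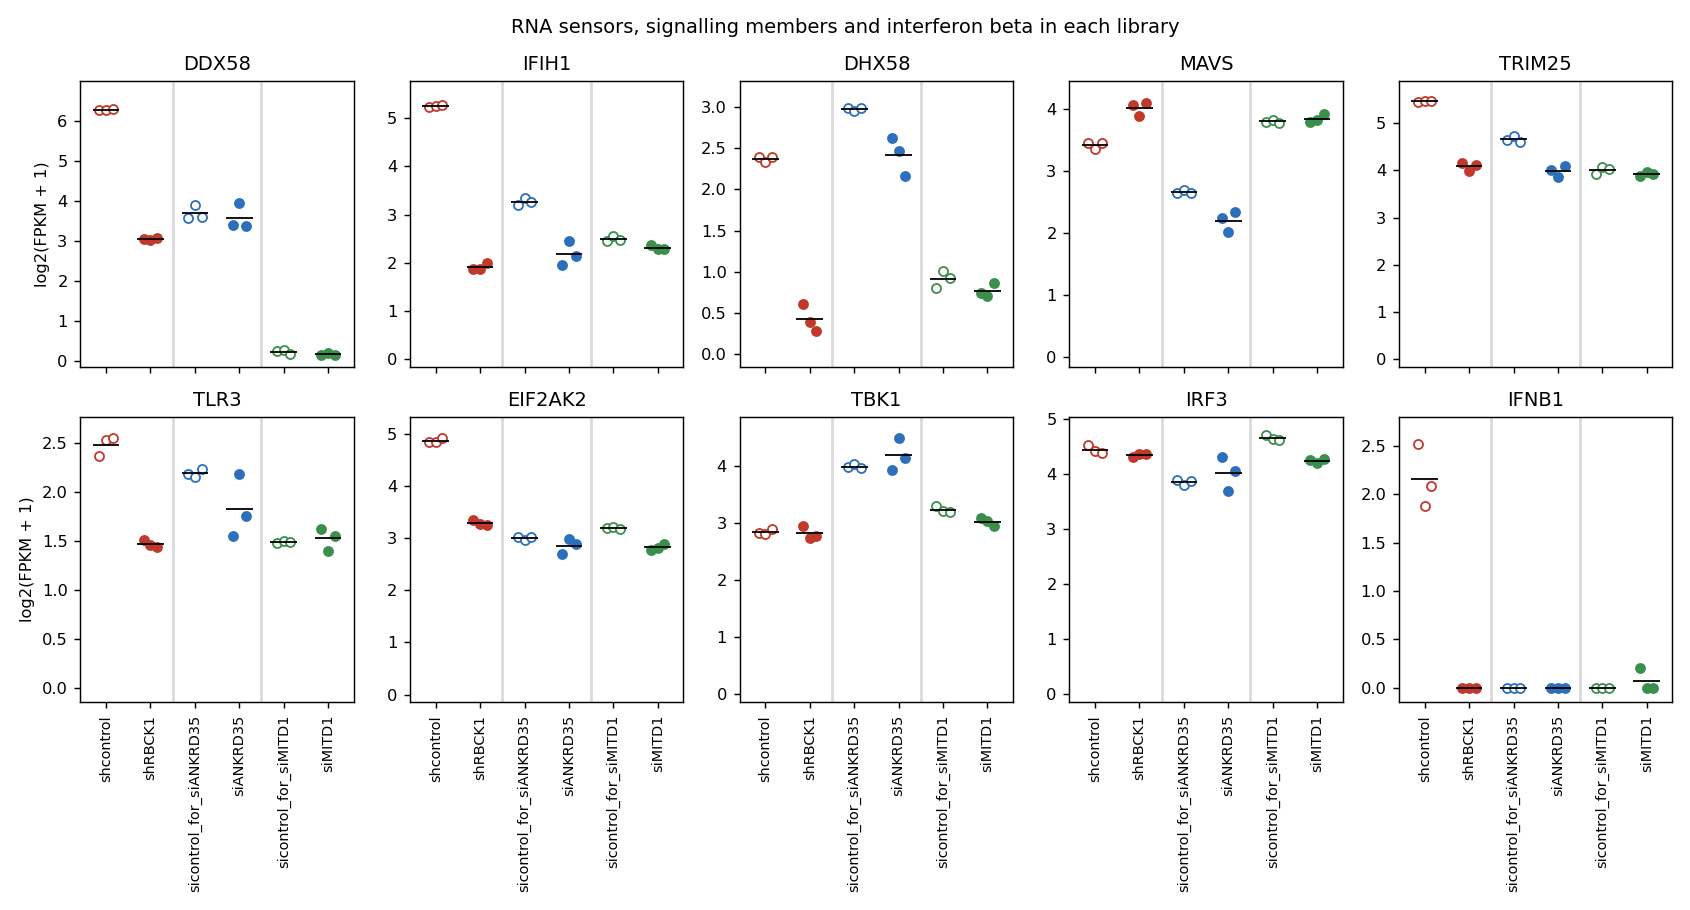
Each panel shows 1 member: the vertical axis is log2(FPKM + 1), the horizontal axis the 6 groups, open circles are control libraries, filled circles knockdown libraries, and the line is the mean of 3. DDX58, IFIH1, TRIM25 and EIF2AK2 are highest in shcontrol, IFNB1 is above 0 in shcontrol and in 1 siMITD1 library, and MAVS is higher in shRBCK1 than in shcontrol.

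The stretches before the transcription starts are shown for the 6 members that fell in shRBCK1 and were matched, to set side by side the short motifs in them. They come from RefSeq on GRCh38.p14, where 8 of the 10 members were matched (DDX58 under its current symbol RIGI). Base numbers and upstream count from the RefSeq starts. The GENCODE 29 spans given below begin farther upstream for the genes shown, and that of DDX58 holds its whole stretch. Capitals mark matches, on either strand, to any of 3 motifs: GAAA repeated after any 2 bases, the core of the interferon-stimulated response element; GGGA, any 2 bases, TTCC, an NF-kB site; and TTC, any 3 bases, GAA, a STAT site. Each run is printed 5′ to 3′ in the direction of the gene.
DDX58, chr9:32526197-32526316, minus strand: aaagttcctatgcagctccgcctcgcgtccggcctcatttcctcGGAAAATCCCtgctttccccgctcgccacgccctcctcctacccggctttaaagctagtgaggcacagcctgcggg
IFIH1, chr2:162318685-162318854, minus strand: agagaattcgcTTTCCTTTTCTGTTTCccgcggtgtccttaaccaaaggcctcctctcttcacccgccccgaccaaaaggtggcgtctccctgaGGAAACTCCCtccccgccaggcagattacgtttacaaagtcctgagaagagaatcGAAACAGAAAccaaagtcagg
TLR3, chr4:186069036-186069161, plus strand: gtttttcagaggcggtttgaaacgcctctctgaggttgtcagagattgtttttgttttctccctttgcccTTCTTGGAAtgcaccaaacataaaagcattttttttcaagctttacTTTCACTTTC
EIF2AK2, chr2:37156977-37157100, minus strand: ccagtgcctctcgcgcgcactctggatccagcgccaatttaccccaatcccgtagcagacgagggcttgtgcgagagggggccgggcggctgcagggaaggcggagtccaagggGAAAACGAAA
TRIM25, chr17:56914050-56914169, minus strand: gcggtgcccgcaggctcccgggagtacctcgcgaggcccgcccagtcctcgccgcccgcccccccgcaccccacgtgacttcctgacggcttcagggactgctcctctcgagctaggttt
IFNB1, chr9:21077943-21078062, minus strand: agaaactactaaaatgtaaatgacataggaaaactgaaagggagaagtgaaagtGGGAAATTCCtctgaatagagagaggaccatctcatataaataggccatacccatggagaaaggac

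In windows of 300 bases, 250 of them before the start, the response element core occurred in 3 of 8 members (IFIH1, TLR3 and EIF2AK2) and in 3.65% of 27305 promoters. In TLR3 and EIF2AK2 the match crossed the start site, from base -4 to base 6 and from base -6 to base 4, so that over the upstream bases alone it occurred in 1 of 8 members and in 3.07% of promoters. IFIH1 held 3 matches, of which the 2 farther from the start overlap each other. The NF-kB letters occurred in 3 of 8 members (DDX58, IFIH1 and IFNB1) and in 1.63% of promoters, at bases -76 to -67 in DDX58 and in IFIH1 and at -66 to -57 in IFNB1. The STAT letters occurred in 2 of 8 members (TLR3 and IFNB1) and in 7.88% of promoters, and 1 TLR3 match and the IFNB1 match lie before the stretches shown. The IFNB1 stretch covers the virus-responsive enhancer of that gene, a textbook case of IRF and NF-kB sites side by side. TRIM25, and also MAVS and TBK1, which were not called lower, held none of the 3 motifs in the window. A match of letters is a description and not a bound site, and no match says only that the letters are not in the window.

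The surrounding genes of the pathway moved unevenly in shRBCK1, where 24.9% of all genes tested were lower and 24.1% higher. The IRF3-linked early targets are antiviral genes and chemokines that IRF3 or interferon can induce, with the stress-induced factor ATF3 also listed. Of these 15, all 15 were tested and 15 were lower, with a median change of -3.39. The list was chosen with earlier results of these data known, so its count is a description. RSAD2 (viperin, which makes a chain-terminating nucleotide) fell by 5.05 on the log2 scale, from 65.9 to 1.02 FPKM, and the chemokine CCL5 fell by 4.48, from 47.5 to 1.18 FPKM (limma adjusted p = 1.08e-09 and 1.49e-09). Among 35 tested cofactors and modifiers of the RNA sensors, 14 were lower and 6 higher with a median of -0.050. DDX60, a helicase reported to aid RIG-I, and its relative DDX60L were among the lower ones, at 14.5 against 2.35 FPKM and 11.3 against 1.71 FPKM. PPP1CC, a phosphatase subunit that acts on RIG-I and MDA5, and TOMM70, a mitochondrial import receptor that binds MAVS, were among the higher ones, with changes of 0.38 and 0.28.

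The counts of the next lists stand beside 24.9% lower and 24.1% higher over all genes. In the list of kinases, adaptors and factors that lead to IRF3 and NF-kB, 15 of 30 tested genes were lower and 3 higher in shRBCK1, with a median of -0.16. IRF7, the interferon-inducible relative of IRF3, fell by 2.89 from 9.96 to 0.477 FPKM. Like DHX58 and IFNB1, it reached the filter only through shcontrol, so it had to differ in order to be tested. MYD88, the adaptor of most Toll-like receptors though not of TLR3, fell by 1.88 from 31.0 to 7.70 FPKM. HSP90AA1, a chaperone of TBK1 and IRF3, rose by 0.35. Of the 13 tested genes of interferon receptor signalling, 6 were lower and 2 higher (median -0.068), with USP18, the feedback inhibitor of the receptor, at 59.3 against 3.13 FPKM. The list of other double-stranded RNA binding and PKR axis genes was even, with 6 lower and 6 higher of 26 (median 0.037). SAMHD1, a dNTP hydrolase placed on this list, fell by 2.69 and PNPT1 (an RNA-degrading enzyme of mitochondria) by 1.39. Cytosolic DNA sensing genes were 4 lower and 5 higher of 17 (median -0.058), with IFI16 and TMEM173 (STING) lower by -1.73 and -1.05, and PRKDC and POLR3B higher by 0.68 and 0.37. Of the endosomal receptor and trafficking genes, 5 were lower and 1 higher of 9 (median -0.26), and UNC93B1, the chaperone that carries TLR3 to endosomes, fell by 1.48 from 40.4 to 13.8 FPKM. The housekeeping list had 3 higher and 2 lower of 8 (median -0.065), and B2M, which is also interferon-inducible, was the most lowered of them at -0.90.

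Other interferon genes were at or near 0. Of 21 other interferon genes none reached the filter in any table, and 15, 18 and 20 of them had 0 reads in all 6 libraries of the RBCK1, ANKRD35 and MITD1 tables. IFNL1, a type III interferon singled out after its values were seen, held 1.16, 0.800 and 1.72 FPKM in shcontrol (53 reads) and 0 in each shRBCK1 library. In sicontrol_for_siANKRD35 it had 9 reads in all, and in siANKRD35 4 reads. IFNE, a type I interferon of reproductive epithelia, had 22 reads in shcontrol and 34 in shRBCK1.

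A smaller and partly different set of members was lower in siANKRD35 than in its control. Of the 9 members tested, 4 were lower (IFIH1, DHX58, MAVS and TRIM25), 0 were higher and 5 did not pass the test, where 16.9% of all 11890 genes tested were lower, 19.4% higher and 36.3% called by limma. The median change was -0.36 for the members and 0.033 for all genes tested. With voom the calls over all genes were 1747 higher and 2724 lower, against 2305 and 2007. IFNB1 had 0 reads in all 6 libraries and was not tested, and its floors of 3 reads correspond to 0.179 to 0.208 FPKM.

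IFIH1 had the largest of these changes. It measured 8.17, 9.09 and 8.61 FPKM in sicontrol_for_siANKRD35 and 2.88, 4.46 and 3.42 FPKM in siANKRD35, with no overlap. The change was -1.08 (SE 0.130, limma adjusted p = 0.00189), a mean 2.41 times lower. TRIM25 measured 24.1, 25.4 and 23.3 FPKM in the controls and 15.1, 13.5 and 16.0 FPKM in siANKRD35, and changed by -0.67 (SE 0.084, limma adjusted p = 0.00211). DHX58 measured 6.96, 6.72 and 6.96 FPKM in the controls and 5.16, 4.51 and 3.48 FPKM in siANKRD35. Its change was -0.56 (SE 0.121, limma adjusted p = 0.0124), and the groups did not overlap, but without sicontrol_for_siANKRD35 replicate 1 or 3 the adjusted p was 0.0502 or 0.0506. MAVS was lower here, at 5.24, 5.45 and 5.30 FPKM in the controls and 3.77, 3.07 and 4.05 FPKM in siANKRD35, a change of -0.46 (SE 0.097, limma adjusted p = 0.0118). The MAVS call was lost without sicontrol_for_siANKRD35 replicate 2 (adjusted p = 0.0547) and with the trend of change on gene length removed (-0.23, adjusted p = 0.160). MAVS has the longest exonic length of the members, 11771 bases in the tables.

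DDX58 did not follow IFIH1 in siANKRD35. It measured 10.9, 13.8 and 11.1 FPKM in the controls and 9.56, 14.3 and 9.36 FPKM in the knockdown. The groups overlapped, since replicate 2 was high in both, and the difference was -0.11 (SE 0.170, limma adjusted p = 0.633). TLR3 had 3.56, 3.45 and 3.71 FPKM in the controls and 1.92, 3.54 and 2.38 FPKM in siANKRD35, a difference of -0.36 (SE 0.158, limma adjusted p = 0.114). EIF2AK2 had 7.09, 6.82 and 7.12 against 5.50, 6.87 and 6.37 FPKM, a difference of -0.15 (adjusted p = 0.236) whose sign turned with the length trend removed (0.058, adjusted p = 0.605). TBK1 had 14.8, 15.4 and 14.6 against 14.2, 21.7 and 16.6 FPKM, and IRF3 13.9, 12.9 and 13.7 against 18.9, 11.99 and 15.7 FPKM. Their differences were 0.20 (SE 0.142, limma adjusted p = 0.313) and 0.17 (SE 0.149, limma adjusted p = 0.419), with overlapping groups.

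For DDX58, TLR3, EIF2AK2 and IRF3 the overlap with the controls was through siANKRD35 replicate 2 alone. In siANKRD35 replicate 2 the level of TLR3 was 1.65 times, of DDX58 1.51 times, of IFIH1 1.42 times and of TBK1 1.41 times the mean of replicates 1 and 3, while IRF3 was at 0.695 times. Without that library 7 of 9 members were lower and 1 higher, where 25.4% of all genes were lower and 29.6% higher. DDX58 was then at -0.30 (limma adjusted p = 0.0470), TLR3 at -0.54 (0.00278), EIF2AK2 at -0.21 (0.0451) and IRF3 at 0.33 (0.0170). That choice also raised the share of all genes called to 55.0%. TLR3 was also called by voom on the recovered reads, with all libraries in (-0.59, adjusted p = 0.0395).

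The lists around the members moved in different directions in siANKRD35, where 16.9% of all genes tested were lower and 19.4% higher. Of the IRF3-linked targets 10 of 13 tested were lower and 0 higher (median -0.89), and 12 of 13 without siANKRD35 replicate 2. RSAD2 fell from 4.78 to 0.548 FPKM and ATF3, a stress-induced transcription factor, from 252 to 70.4 FPKM. RSAD2 reached the filter here only through sicontrol_for_siANKRD35, so it had to differ in order to be tested. Of 35 sensor cofactors 11 were lower and 5 higher (median 0.090). ZC3HAV1 (ZAP, which binds CpG-rich viral RNA), also on the target list, fell by 1.27 and the deubiquitinase CYLD by 0.71, while UBE2N and RNF5, a ubiquitin-conjugating enzyme and a ligase of the pathway, rose by 0.72 and 0.69. The kinase and adaptor list had 4 lower and 4 higher of 30 (median 0.0020), with FADD higher by 0.48. The receptor signalling list had 3 lower and 0 higher of 13 (median -0.12), and JAK1 fell by 0.60. The double-stranded RNA binding and PKR axis list had 4 and 4 of 25 (median -0.045), and ADAR, the editor of double-stranded RNA, fell by 0.65. The DNA sensing list had 5 lower and 7 higher of 14 (median 0.28), with POLR3G at 0.65 and PRKDC at -0.48 (-0.20, adjusted p = 0.0704 with the length trend removed). The endosomal list had 1 lower and 3 higher of 8 (median 0.34), with CTSB and CTSL both higher by 0.67. Of the housekeeping genes 5 of 8 were higher and 0 lower (median 0.39), with PPIA and SDHA higher by 0.73 and 0.64, against the direction of the 4 called members. The part of this shift in the member values was not tested.

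MITD1 knockdown was followed by small differences in the members that could be tested. Of 7 members tested 4 were lower (IFIH1, EIF2AK2, TBK1 and IRF3), 0 were higher and 3 did not pass the test. Over all 10415 genes tested 35.6% were lower, 30.0% higher and 65.6% called by limma, so the share of members called was no larger than that of all genes. The median change was -0.18 for the members and -0.026 for all genes tested.

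IRF3 and EIF2AK2 had the largest changes. IRF3 measured 25.0, 23.8 and 23.4 FPKM in sicontrol_for_siMITD1 and 18.1, 17.3 and 18.2 FPKM in siMITD1. The groups were apart by over 5 FPKM, and the change was -0.41 (SE 0.039, limma adjusted p = 2.59e-05). IRF3 shares its locus with BCL2L12 on the other strand, and BCL2L12 moved with it in this table, from 32.9 to 23.4 FPKM. In the RBCK1 and ANKRD35 tables BCL2L12 went from 15.7 to 18.7 and from 20.8 to 31.0 FPKM. The library kit keeps the strand but the counting strand is not given in the sources used here, so the part of BCL2L12 reads in the IRF3 value was not tested. EIF2AK2 measured 8.13, 8.27 and 8.01 FPKM in the controls and 5.83, 5.97 and 6.38 FPKM in siMITD1, a change of -0.37 (SE 0.047, limma adjusted p = 0.000146). Its neighbour on the other strand, GPATCH11, was at 7.15 and 6.86 FPKM.

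TBK1 measured 8.80, 8.26 and 8.20 FPKM in the controls and 7.54, 7.18 and 6.69 FPKM in siMITD1, a change of -0.21 (SE 0.053, limma adjusted p = 0.00723). IFIH1 measured 4.47, 4.85 and 4.54 FPKM in the controls and 4.14, 3.86 and 3.86 FPKM in siMITD1, a change of -0.18 (SE 0.054, limma adjusted p = 0.0159). The IFIH1 call was lost without sicontrol_for_siMITD1 replicate 2 (adjusted p = 0.0562). MAVS had 12.9, 13.2 and 12.8 against 12.8, 13.2 and 14.1 FPKM, TRIM25 had 14.1, 15.8 and 15.2 against 13.8, 14.5 and 14.1 FPKM, and TLR3 had 1.79, 1.82 and 1.81 against 2.09, 1.63 and 1.93 FPKM. All 3 had overlapping groups, with differences of 0.041 (SE 0.044), -0.081 (SE 0.048) and 0.035 (SE 0.074) and limma adjusted p = 0.444, 0.167 and 0.696. TRIM25 passed the test without sicontrol_for_siMITD1 replicate 1 (-0.13, adjusted p = 0.0415).

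DDX58, DHX58 and IFNB1 were too low in the MITD1 table to be tested. DDX58 was listed at 0.178, 0.193 and 0.129 FPKM in the controls and 0.104, 0.149 and 0.106 FPKM in siMITD1, which are 32 reads against 24. The ratio of siMITD1 to control was 0.715 (95% interval 0.403 to 1.25, counting error only; exact permutation p = 0.2, where the smallest p that 3 against 3 allows is 0.1). DHX58 was at 0.753, 1.01 and 0.897 FPKM in the controls and 0.673, 0.626 and 0.824 FPKM in siMITD1, a ratio of 0.795 (95% interval 0.622 to 1.01; exact permutation p = 0.2). IFNB1 had 2 reads, both in siMITD1 replicate 1, and neither group was above the floor of 3 reads. None of these ratios was distinguishable from no change at this depth.

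The DDX58 level in the MITD1 table is given as a listed value only. Of 5203 genes at 5 FPKM or more in all 4 groups of the other tables, 112 (2.15%) were under 1/20 of that level in the MITD1 table, and DDX58 was the only member among them. The 112 include genes that every cell uses, such as PRPF8 (a core spliceosome protein, 18.2 FPKM or more elsewhere and 0.00207 FPKM in sicontrol_for_siMITD1), TUBB, PSMB3 and RPS9, and 40 lie in the MHC region of chromosome 6. TOPORS and ACO1, genes next to DDX58 on chromosome 9, were at 8.08 and 22.5 FPKM in the same controls. Why these genes are near 0 was not tested.

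Around the members, many genes differed in both directions in siMITD1, as over all genes tested (35.6% lower, 30.0% higher and 65.6% called). The sensor cofactors had 16 lower and 10 higher of 34 (median -0.11), with SMURF2 and OTUB1 lower by -0.86 and -0.63, and ZCCHC3 (a co-receptor of RIG-I and MDA5) and MFN1 (a mitochondrial fusion GTPase that binds MAVS) higher by 0.93 and 0.63. The kinase and adaptor list had 15 lower and 7 higher of 29 (median -0.16), with IKBKE, the kinase most like TBK1, at 7.75 against 4.73 FPKM and DOK3 at -0.69, and TRAF3 and OPTN higher by 0.43 and 0.35. The IRF3-linked targets had 6 lower and 2 higher of 9 tested (median -0.38). OASL fell by 1.39 and IFIT1 by 0.71, while ATF3 rose by 1.08 and IFI44 by 0.20. SOCS1, a feedback inhibitor of cytokine receptors, was lower, at 24.3 against 9.67 FPKM, and PTPN11 and PTPN2 were higher, in a receptor list with 4 lower and 5 higher of 12 (median 0.063). The double-stranded RNA binding and PKR axis list had 14 lower and 5 higher of 25 (median -0.14), with DDX21 at -1.15, STAU2 at -0.73 and EIF2AK1 at 0.31. DNA sensing had 10 lower and 2 higher of 16 (median -0.16), with POLR3F at -0.93, ENPP1 at -0.48, IFI16 at 0.54 and LRRFIP1 at 0.52. The endosomal list had 5 lower and 3 higher of 9 (median -0.35), with UNC93B1 at -0.93 and CTSL at 0.58. The housekeeping genes had 5 lower and 1 higher of 8 (median -0.070).

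**Figure D2:**
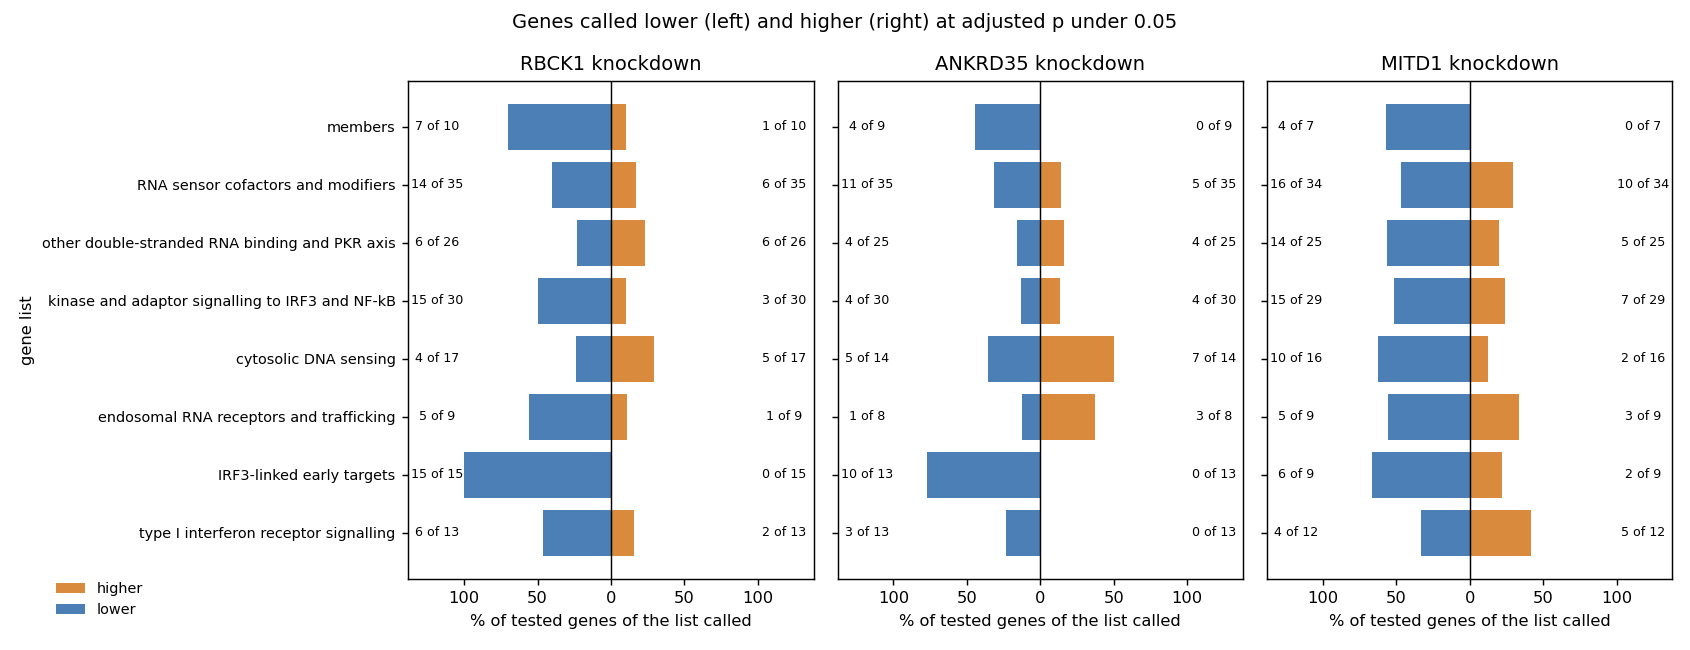
For each gene list and knockdown the bars give the percent of tested genes called lower (left, blue) and higher (right, orange) by limma at an adjusted p under 0.05, with the counts beside them. The IRF3-linked targets were all lower in the RBCK1 comparison, and the 10 members had 7, 4 and 4 genes lower in the 3 comparisons. The lists were chosen with earlier results of these data known. Over all genes tested 24.9%, 16.9% and 35.6% were lower in the RBCK1, ANKRD35 and MITD1 comparisons.

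**Figure D3:**
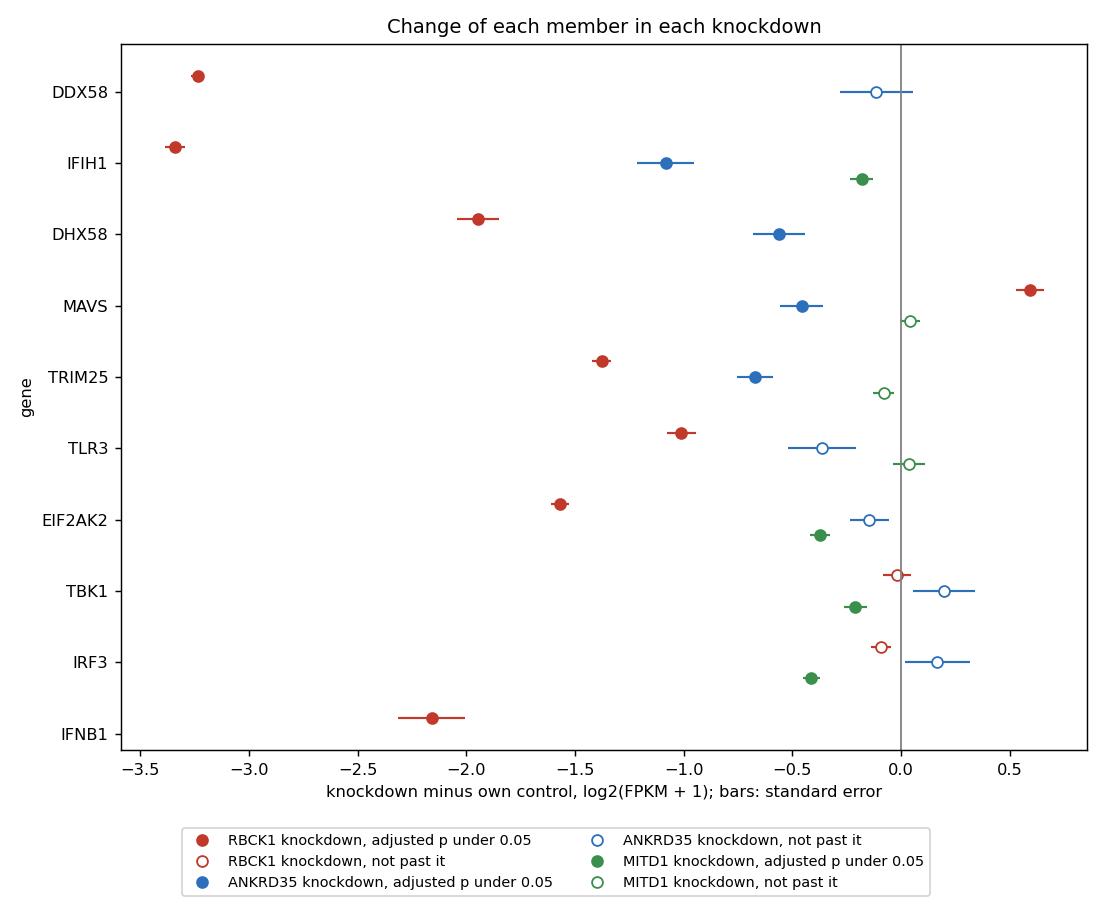
Points give the knockdown minus control difference in log2(FPKM + 1) for each member, bars the standard error from limma, and filled points an adjusted p under 0.05; members without a point were not tested in that table. DDX58 and IFIH1 lie near -3 in the RBCK1 comparison, and MAVS lies on either side of 0.

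The differences between the knockdown effects were tested in 1 limma fit over the 18 libraries and 11964 genes. A scaling of a whole table nearly cancels in it for genes well above the pseudocount of 1. It does not cancel for members at a few FPKM or less. Between the RBCK1 and ANKRD35 effects 8 of 10 members differed (48.3% of all genes did), between the RBCK1 and MITD1 effects 8 of 10 (47.1%), and between the ANKRD35 and MITD1 effects 8 of 10 (57.9%). IFNB1 is among the 8 of both contrasts with RBCK1, but it entered the fit only through its shcontrol libraries, so its difference there was fixed by the filter and carries no weight as a test. Between RBCK1 and ANKRD35 the difference was -3.12 for DDX58 (SE 0.160, adjusted p = 4.47e-10) and -2.26 for IFIH1 (SE 0.124, adjusted p = 1.11e-09). The size of the scarcer members' differences depends on the pseudocount: for DHX58 it was -1.38 here and -2.65 with a pseudocount of 0.1, so the members are not ranked by it. MAVS differed in sign between these 2 knockdowns, and the difference was 1.05 (SE 0.102, adjusted p = 7.12e-07); against MITD1 it was 0.55 (adjusted p = 0.000340). The fit has 1 residual variance per gene for all 6 groups, so the spread of siANKRD35 also enters the RBCK1 minus MITD1 contrast. For DDX58 the SE of RBCK1 minus ANKRD35, 0.160, was below the 0.170 of the ANKRD35 effect alone. TBK1 and IRF3 did not pass in either contrast with RBCK1. Their differences were -0.22 (SE 0.145, adjusted p = 0.232) and -0.26 (SE 0.143, adjusted p = 0.153) for RBCK1 minus ANKRD35, but without siANKRD35 replicate 2 IRF3 passed at -0.42 (adjusted p = 0.000638), and without siANKRD35 replicate 1 TBK1 passed at -0.35 (adjusted p = 0.0245). For RBCK1 minus MITD1 they were 0.19 (adjusted p = 0.301) and 0.32 (adjusted p = 0.0789), and IRF3 passed without siANKRD35 replicate 1 or 2 (adjusted p = 0.0142 and 0.00314).

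Between ANKRD35 and MITD1 the IFIH1 effect was more negative for ANKRD35 by -0.90 (SE 0.124, adjusted p = 1.67e-05), TRIM25 by -0.59 and MAVS by -0.50, and IRF3 differed by 0.58 (SE 0.143, adjusted p = 0.00280). These 4 kept their calls without any 1 of the 18 libraries. The calls of TLR3, EIF2AK2, DHX58 and TBK1 in this contrast (adjusted p = 0.0432, 0.0310, 0.02003 and 0.0245) were lost without 14, 7, 3 and 2 of the 18 libraries taken out 1 at a time, with adjusted p up to 0.113, 0.0728, 0.0523 and 0.0589. The DHX58 call was also lost with a pseudocount of 0.1 or 0.5 (adjusted p = 0.276 and 0.0676), that of EIF2AK2 with median-of-ratios scaling (0.0625) and that of TLR3 with no filter (0.0832). For TLR3 the 4 libraries that could be left out without loss were shcontrol replicates 1 and 3, siANKRD35 replicate 2 and siMITD1 replicate 2. For EIF2AK2 the loss came without siANKRD35 replicate 2 or 3, siMITD1 replicate 1 or 2, sicontrol_for_siANKRD35 replicate 2 and sicontrol_for_siMITD1 replicate 1 or 2. For DHX58 it came without siANKRD35 replicate 3, siMITD1 replicate 3 or sicontrol_for_siMITD1 replicate 1, and for TBK1 without siMITD1 replicate 3 or sicontrol_for_siMITD1 replicate 1. DDX58 in this contrast (-0.054, adjusted p = 0.790) passed without siANKRD35 replicate 2 (-0.24, adjusted p = 0.0369), and here, as in its contrast of RBCK1 with MITD1, it rests on its listed values in the MITD1 table. With a replicate block TLR3 and EIF2AK2 did not pass in this contrast (adjusted p = 0.0594 and 0.0638).

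The control groups themselves held the members at unlike levels. The tables were normalized separately, so these levels are set side by side without a test. DDX58 averaged 76.5 FPKM (SD 0.447, n = 3) in shcontrol, 11.9 FPKM (SD 1.61) in sicontrol_for_siANKRD35 and 0.167 FPKM (SD 0.0333) in sicontrol_for_siMITD1. Ranked within each group among 11530 genes, its percentile was 95.8 in shcontrol, 69.0 in sicontrol_for_siANKRD35, 4.93 in sicontrol_for_siMITD1 and 52.9 in shRBCK1. IFIH1 averaged 37.2, 8.62 and 4.62 FPKM in the same order of controls, and EIF2AK2 28.0, 7.01 and 8.14 FPKM. The shRBCK1 means were 7.23 FPKM for DDX58, between those of the sicontrol_for_siANKRD35 and sicontrol_for_siMITD1 groups, and 2.78 FPKM for IFIH1, below all 3 controls. DHX58 was higher in sicontrol_for_siANKRD35 (6.88 FPKM) than in shcontrol (4.18 FPKM), and TBK1 likewise (14.9 and 6.16 FPKM), so the members did not share 1 order of controls. IFNB1 was detected in shcontrol alone among the controls. Across 8 housekeeping genes the ratio of shcontrol to sicontrol_for_siANKRD35 ranged from 0.678 to 2.71, against 6.42 for DDX58, 4.32 for IFIH1 and 4.001 for EIF2AK2. In that pair 471 of 11530 genes (4.09%) had a ratio at or above that of DDX58, with a pseudocount of 0.1 FPKM. For shcontrol over sicontrol_for_siMITD1 the housekeeping ratios ranged from 0.527 to 11.3, a range that holds those of IFIH1 (8.06) and EIF2AK2 (3.45). It does so only through SDHA (11.3, at 2.52 FPKM in sicontrol_for_siMITD1) and the interferon-inducible B2M (4.31). The rest ran from 0.527 to 0.708. RBCK1, as given above, was itself several times higher in shcontrol than in the other controls, and its part in these levels was not tested.

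Within shcontrol the order of levels per length was DDX58, TRIM25 (43.1 FPKM), IFIH1, EIF2AK2, IRF3 (20.7 FPKM), MAVS (9.76 FPKM), TBK1, TLR3 (4.59 FPKM), DHX58 and IFNB1 (3.54 FPKM). The libraries of TLR3, DHX58 and IFNB1 overlapped, and those of the other neighbours did not. In shRBCK1 the order changed to IRF3 (19.4 FPKM), TRIM25 (16.0 FPKM), MAVS (15.2 FPKM), EIF2AK2 (8.78 FPKM), DDX58, TBK1 (6.07 FPKM), IFIH1, TLR3 (1.77 FPKM), DHX58 (0.351 FPKM) and IFNB1, with TRIM25 and MAVS overlapping. In sicontrol_for_siANKRD35 TRIM25 (24.2 FPKM) led and TBK1 and IRF3 (13.5 FPKM) came next, with DDX58 overlapping IRF3, and EIF2AK2 overlapping DHX58 farther down. In siANKRD35 TBK1, IRF3, TRIM25 and DDX58 led, and their libraries overlapped from each to the next. In sicontrol_for_siMITD1 IRF3 (24.1 FPKM) led and TRIM25 (15.04 FPKM) and MAVS (12.96 FPKM) followed without overlap, as did the same 3 in siMITD1 apart from an overlap of TRIM25 and MAVS.

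The genes whose log2(FPKM + 1) ran most like that of DDX58 over the 18 libraries were TRIM69, TAP1, AFAP1, NAPRT and GPR176, with Pearson r between 0.969 and 0.984 among 11964 genes. TAP1, the peptide transporter of antigen presentation, is another of the genes listed near 0 in the MITD1 table. NAPRT and TRIM69 were also low there, at 0.149 and 0.0760 FPKM in sicontrol_for_siMITD1. The part of these low values in the ranking was not tested. Over the 12 libraries of the other tables, a choice made after seeing the data, the 5 genes were SAMHD1, OAS2, SP100, UBE2L6 and SMTNL1, with r between 0.986 and 0.991. SAMHD1, a dNTP hydrolase, averaged 24.9, 3.01, 3.76 and 4.21 FPKM in shcontrol, shRBCK1, sicontrol_for_siANKRD35 and siANKRD35. OAS2, a synthetase activated by double-stranded RNA, averaged 69.1, 0.322, 2.74 and 1.44 FPKM in the same groups. Among the other members, r with DDX58 over the 12 libraries was 0.965 for IFNB1, 0.961 for IFIH1, 0.924 for EIF2AK2, 0.910 for TRIM25 and 0.820 for TLR3, against 0.376 for DHX58, 0.104 for MAVS, 0.396 for IRF3 and -0.37 for TBK1. These correlations describe libraries that fall into a few groups, with shcontrol far from the rest, and carry no test.

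On GRCh38 all 10 members have the coordinates of GENCODE 29. DDX58 and IFNB1 both lie on chromosome 9 (32455705 to 32526324 and 21077105 to 21077963, minus strand), DDX58 with up to 18 exons and IFNB1 with 1, so its 859 listed bases are a single exon without introns. IFIH1 (162267079 to 162318703) and EIF2AK2 (37099210 to 37157065) lie on chromosome 2, minus strand. DHX58 (42101404 to 42112733) and TRIM25 (56836387 to 56914080) lie on chromosome 17, minus strand. MAVS lies on chromosome 20 (3846799 to 3876123), TLR3 on chromosome 4 (186069152 to 186088069) and TBK1 on chromosome 12 (64451880 to 64502108), all plus strand, and IRF3 on chromosome 19 (49659569 to 49665875, minus strand). The spans of DDX58, IFIH1, DHX58, MAVS, TLR3 and IFNB1 overlap no other gene. TRIM25 overlaps 6, of which DGKE and C17orf67 were the best expressed at 0.575 to 2.81 FPKM in any group mean, far under TRIM25, EIF2AK2 overlaps GPATCH11 and a gene at no more than 0.103 FPKM, and TBK1 overlaps 1 at no more than 0.0547 FPKM in the RBCK1 and ANKRD35 tables.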

How the data were processed

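Gene-level FPKM values deposited by the authors in 3 tables were used as they stand; per the labels' protocols, total RNA went into a directional library kit. Per the submitters' processing notes the build was mm10, although the identifiers are human. The aligner, counter and counting strand are not given in the sources used here. Each knockdown was compared with its own control within its table by limma-trend (limma 3.58.1, R 4.3.3) on log2(FPKM + 1), for genes of at least 1 FPKM in at least 3 of 6 libraries, with Benjamini-Hochberg adjustment over all genes tested and a threshold of 0.05 (two-sided). Reads were recovered from FPKM times gene length: 100% of genes came out whole within 0.01 reads in the RBCK1 and ANKRD35 tables and 92.6% of 18028 in the MITD1 table, where lengths were taken from the RBCK1 table by symbol and IFIH1 and TRIM25 did not come out whole. Intervals and floors cover counting error only. A further 6 columns of values matched none of the sample labels and were not used.

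The members and gene lists were chosen with earlier results of these data known. Named were all members, the targeted genes, the 2 most raised and 2 most lowered called genes of each list per comparison (of these, genes whose call 1 left-out library ended stand in the counts only) and the 5 genes most like DDX58. Some genes that this rule names are not reported here. Fits were tested on simulated data. Alternatives were other pseudocounts (0.1 and 0.5), no filter or at least 5 FPKM, quantile and median-of-ratios scaling, removal of a length trend, voom on recovered reads, a replicate block and each library left out.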

Additional observations from a re-analysis of the deposited data

Results flagged for a closer look

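The members below had knockdown effects that differed between targets, by the limma contrast of differences over 18 libraries at an adjusted p under 0.05. Values are differences of log2 changes. For RBCK1 minus ANKRD35 they were -3.12 for DDX58, -2.26 for IFIH1, -1.38 for DHX58, 1.05 for MAVS, -0.71 for TRIM25, -0.65 for TLR3, -1.42 for EIF2AK2 and -2.16 for IFNB1. For RBCK1 minus MITD1 they were -3.18 for DDX58, -3.16 for IFIH1, -1.80 for DHX58, 0.55 for MAVS, -1.30 for TRIM25, -1.05 for TLR3, -1.20 for EIF2AK2 and -2.23 for IFNB1. For ANKRD35 minus MITD1 they were -0.90 for IFIH1, -0.42 for DHX58, -0.50 for MAVS, -0.59 for TRIM25, -0.40 for TLR3, 0.22 for EIF2AK2, 0.41 for TBK1 and 0.58 for IRF3. The DHX58 and IFNB1 values depend on the pseudocount: with 0.1 in place of 1 they were -2.65 and -5.15 for RBCK1 minus ANKRD35 and -3.02 and -5.59 for RBCK1 minus MITD1, and the DHX58 difference for ANKRD35 minus MITD1 did not pass (-0.37, adjusted p = 0.276). IFNB1 was tested only because of its shcontrol libraries and was at 0 in both groups of the ANKRD35 table, so its difference there is the RBCK1 change alone, and DDX58 in the MITD1 table rests on 32 and 24 reads.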

How the results depend on the processing

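All 8 members called for RBCK1 kept their call under every alternative in which they were tested. DHX58 and IFNB1 met the filter of 1 FPKM only through shcontrol, so under it their calls were favoured by the filter. With no filter both were still called, though IFNB1 had reads in shcontrol alone, and at 5 FPKM neither was tested. Of the member values under an alternative, 363 kept direction and side of the threshold, 8 changed sign, 6 gained a call and 5 lost it. The changes of sign were small. With quantile scaling the RBCK1 comparison had TBK1 at 0.0066 and PPIA at 0.046, and the MITD1 comparison had ACTB at -1.8e-15. With voom the RBCK1 comparison had TBK1 at 0.041 and MITD1 at 0.016. With the length trend removed EIF2AK2 for ANKRD35 was 0.058 and MAVS for MITD1 -0.017. With 1 library left out, TBK1 for RBCK1 ran from -0.086 to 0.021 and TLR3 for MITD1 from -0.015 to 0.099. For ANKRD35 minus MITD1, DDX58 was 0.15 with a pseudocount of 0.1 and ran from -0.24 to 0.046 with 1 library left out, and IFNB1 ran from -0.10 to 0. Genes called for ANKRD35, 4312 with all libraries, ranged from 2267 (without sicontrol_for_siANKRD35 replicate 2) to 6536 (without siANKRD35 replicate 2). They numbered 2324, 2358 and 2825 without sicontrol_for_siANKRD35 replicate 1 or 3 or siANKRD35 replicate 3, and called members ranged from 3 to 8. At a filter of 5 FPKM, where fewer genes are tested, 5 members were called for RBCK1 (DDX58, IFIH1, EIF2AK2, TRIM25 and MAVS). TBK1 and IRF3 were tested and not called, and TLR3, DHX58 and IFNB1 were not tested. Of all 7430 genes tested at that filter, 4504 were called. The response element core was in 1 member over upstream bases. Same-numbered libraries did not deviate together in every pair (correlations of -0.087 to 0.18). With 3 libraries a group this can neither show nor exclude pairing by number, and the main fits are unpaired. With a replicate block 5347, 4139 and 6859 genes were called, and the differences of effects gave 5658, 5546 and 6874. Where no construction is named, the cause was not tested. Read depth limits DHX58 and IFNB1 in shRBCK1 and DDX58, DHX58 and IFNB1 in the MITD1 table.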
